A study of Mus musculus with 56 samples.

Results

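The immediate early genes Fos, Fosb, Jun, Junb, Egr1, Egr2, Atf3, Ier2, Nr4a1 and Dusp1 were followed across lung, liver and forestomach of mice given chrysene, a polycyclic aromatic hydrocarbon. These 10 members, of 20018 genes named on the array, were found by matching the RefSeq accession of each probe to a gene symbol. Each member had exactly 1 probe on the array, so its level in the 3 tissues always came from the same probe. The probe of Fos was printed on 10 spots of each array and the others on 1 spot.

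Male MutaMouse, a transgenic strain carrying a lacZ reporter used for mutation assays, were about 14 weeks old. They were dosed by oral gavage on 28 consecutive days with olive oil alone (D0, the vehicle) or with chrysene dissolved in it, at 17.5 mg/kg-bw/day in group D1, 50 in D2 and 150 in D3, and were killed 72 hours after dosing ended. From D0 to D3 the groups held 5, 5, 3 and 5 lungs, and 5, 5, 4 and 5 of each other organ. Tissue RNA was labelled with Cy5 and hybridised on 2-colour arrays against a universal reference RNA, pooled from 11 mouse cell lines and labelled with Cy3. The 56 arrays thus hold 18 lungs, 19 livers and 19 forestomachs, all with the dyes the same way round, so that a dye bias of a probe cancels between arrays but not within an array. Values are log2 ratios of the tissue over the reference RNA unless another scale is named, and a level is never set against that of another probe. RNA came from random slices of the right lung lobe, the left liver lobe and the forestomach. In such mixed tissue fewer cells of a type and less RNA per cell cannot be told apart.

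Immediate early genes are switched on within minutes of a stimulus, without new protein synthesis, by kinase cascades that act on factors such as SRF and CREB already bound at their promoters. Most encode transcription factors that start a later wave of expression, and their transcripts are short-lived because the mRNA decays fast and feedback proteins shut the cascades down. In tissue they are known to respond to growth factors, injury, stress and the handling and dissociation of the organ itself.

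The labelled tissues carried their own markers. Alveolar type 2 genes (6 genes, among them the surfactant proteins) averaged 5.93 to 6.39 in lung and at most 0.12 elsewhere, hepatocyte genes (7) averaged 7.04 to 7.64 in liver, and keratinocyte genes (9) averaged 4.54 to 6.96 in forestomach and -0.18 to 0.05 in liver. Hepatocyte genes had a median of 0.74 over the lungs but ran from 0.00 to 3.39 over the forestomachs, and their part in the forestomach values was not tested. Several arrays stood apart. The D3 lungs of mice 17 and 19 held skeletal muscle genes (13) at means of 5.45 and 5.30 against -0.94 to 0.03 in the other lungs, and keratinocyte genes at 3.66 and 4.15 against -0.47 to -0.33. In forestomach the glandular stomach genes (10, among them mucus, pepsinogen and proton pump genes) averaged 5.72 to 7.28 in 3 of 5 D0, 2 of 5 D1, 4 of 4 D2 and 1 of 5 D3 samples and 0.25 to 2.11 in the rest. Probes well above background in Cy5 made up 47.6% to 55.2% on lung arrays, 33.2% to 45.2% on liver arrays, and 39.0% to 50.2%, 23.5% to 33.4% and 18.1% to 28.7% on the 3 forestomach slides, so that dim members were measured on only part of the forestomach arrays. All D0 lungs lay in array column 1, and the column followed the dose step on 50 of 56 arrays.

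The sequences just before the start were searched for the motifs of CREB-type, AP-1, SRF and EGR factors. The promoter table of RefSeq on build GRCm38.p6 held windows for 8 of 10 members. The 250 bases before the transcript start are printed 5' to 3' on the gene's strand for the 5 members whose values the results turn on and that had a window. Capitals mark TGACG or its reverse complement CGTCA, the 5-letter core of the cAMP response element (CRE), and TGACATCA, the Jun-type CRE.
Fos, chr12:85473640-85473889, + strand: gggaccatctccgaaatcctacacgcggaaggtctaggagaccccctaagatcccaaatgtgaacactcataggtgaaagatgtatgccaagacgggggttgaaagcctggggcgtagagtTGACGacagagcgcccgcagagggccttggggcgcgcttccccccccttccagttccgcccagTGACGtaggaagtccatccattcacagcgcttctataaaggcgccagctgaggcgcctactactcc
Jun, chr4:95052223-95052472, - strand: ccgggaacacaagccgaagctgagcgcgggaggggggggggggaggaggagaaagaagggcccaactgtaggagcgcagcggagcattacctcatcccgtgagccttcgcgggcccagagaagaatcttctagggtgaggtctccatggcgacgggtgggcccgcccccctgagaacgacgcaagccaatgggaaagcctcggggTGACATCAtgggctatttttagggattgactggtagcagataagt
Atf3, chr1:191183334-191183583, - strand: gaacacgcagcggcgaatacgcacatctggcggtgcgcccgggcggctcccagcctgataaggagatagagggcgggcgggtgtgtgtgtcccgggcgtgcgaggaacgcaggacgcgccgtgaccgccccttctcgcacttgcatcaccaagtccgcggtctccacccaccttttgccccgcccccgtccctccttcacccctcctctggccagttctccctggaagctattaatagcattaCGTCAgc
Nr4a1, chr15:101266596-101266845, + strand: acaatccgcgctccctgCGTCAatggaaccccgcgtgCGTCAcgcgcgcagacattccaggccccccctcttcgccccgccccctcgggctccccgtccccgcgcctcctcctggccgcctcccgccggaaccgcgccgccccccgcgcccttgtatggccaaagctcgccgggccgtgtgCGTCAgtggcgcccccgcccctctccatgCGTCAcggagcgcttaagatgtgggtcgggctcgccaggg
Dusp1, chr17:26508473-26508722, - strand: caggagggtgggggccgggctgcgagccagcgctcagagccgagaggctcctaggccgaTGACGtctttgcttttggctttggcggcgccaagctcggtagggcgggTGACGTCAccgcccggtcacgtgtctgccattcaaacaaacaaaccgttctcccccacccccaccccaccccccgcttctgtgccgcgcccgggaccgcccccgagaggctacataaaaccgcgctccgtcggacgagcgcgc

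Searched on both strands, the core TGACG lay in at least 1 window of 7 of the 8 members that had one. It lay in 17.8% of 32851 promoter windows of the same length, a share of windows and not of genes, where the members had 12 windows. It began 129 and 66 bases before the start of Fos, 7 bases before that of Atf3, and 233, 213, 69 and 40 bases before that of Nr4a1, whose window belongs to a transcript that starts inside the annotated gene. Dusp1 held the full CRE, TGACGTCA, 143 bases before its start, a match found in 1.55% of all windows and holding 2 overlapping cores, and a further core at 191 bases. Jun had no core but a TGACATCA match at 45 bases, present in 2.93% of windows. Of the members not printed, Fosb (60 bases) and Junb (106 bases) held 1 core each. Egr2 had 5 windows, of which 3 overlap and share the same 2 cores, 111 and 55 bases before the first of their starts. They also share 1 CArG box, the site of SRF, 72 bases before that start, and another window held a further one. A CArG box is found in 1.47% of all windows. GCGNGGGCG, the site bound by EGR proteins, was matched in Fosb (50 bases) and Nr4a1 (60 bases) and in 4.7% of windows. TGANTCA, the AP-1 site, was found in 6.75% of windows and in none of the members' windows. These matches describe letters in a window and are no measure of binding.

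Levels in the vehicle mice were compared first. In lung against liver 8 of 10 members passed the limits used throughout (limma's p adjusted by Benjamini-Hochberg over every probe tested, no more than 0.05, with a change of at least 1.5-fold), 4 higher and 4 lower in lung, where 46% of all probes tested passed. In lung against forestomach 7 passed (2 higher, 5 lower; 37.6% of all probes), and in liver against forestomach 4 passed, all lower in liver (41% of all probes). The unadjusted p was no more than 0.05 for 8, 7 and 6 of the 10 members, where 70.4%, 64.6% and 66% of all probes reached that limit. Another centring of the arrays matters here. With each array centred on its median in place of LOWESS, the median difference over all probes was 0.62 for lung minus liver, 0.95 for lung minus forestomach and 0.17 for liver minus forestomach, against 0.03, 0.00 and -0.04 in the authors' values, so differences under that centring are also given relative to those medians, which shows whether a member moved against the other probes.

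Jun, the AP-1 subunit that can pair with itself or with Fos proteins, set the tissues apart most clearly. The 5 vehicle lungs read 1.13, 1.17, 1.18, 0.75 and 0.93, the livers -3.35, -3.93, -3.94, -3.92 and -3.49, and the forestomachs -0.90, -0.23, -0.81, -0.49 and -0.24. No tissue overlapped another. Jun was 27.1-fold higher in lung than in liver (log2 difference 4.76, 95% confidence interval 4.37 to 5.15, limma adjusted p = 6.55e-27) and 2.96-fold higher in lung than in forestomach (1.57, adjusted p = 1.61e-09). Liver lay below forestomach by 3.19 on the log2 scale (adjusted p = 9.49e-20). Relative to the median of all probes under median centring these differences were 4.41, 2.39 and -1.87, and under that centring liver against forestomach no longer passed (adjusted p = 0.0788).

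Nr4a1, an orphan nuclear receptor that acts as a transcription factor, had means of -1.83 ± 0.16 (SD, n = 5) in vehicle lung, -2.02 ± 0.57 in forestomach and -3.87 ± 0.10 in liver. The liver values lay below every lung and forestomach value. Lung over liver was 4.12-fold (2.04, limma adjusted p = 2.04e-07), and liver lay below forestomach by 1.86 (adjusted p = 1.88e-06; not past the limit with median centring, at -0.69 relative to all probes). Lung and forestomach, neighbours in this order, did not differ beyond their spread (0.19, 95% confidence interval -0.45 to 0.83), though under median centring lung was higher by 2.41, or 1.46 relative to all probes. Dusp1, the phosphatase that inactivates MAP kinases and so closes the loop, averaged 0.69 ± 0.49 in lung, -0.48 ± 0.33 in forestomach and -0.84 ± 0.51 in liver. It was 2.89-fold higher in lung than in liver (adjusted p = 4.93e-06) and 2.26-fold higher than in forestomach (adjusted p = 0.000355), relative differences of 2.15 and 2.18 under median centring. The Cy5 signal of Dusp1 in the vehicle forestomachs was 87 to 700.5, with a median of 100. The lowest signal called well above background there was 70.5 to 85.5, so the size against forestomach rests partly on signals near that limit. Liver and forestomach did not pass for Dusp1 (-0.36, 95% confidence interval -0.92 to 0.21; 0.35 under median centring, or 0.18 relative to all probes).

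Egr1, a zinc finger factor that binds GC-rich sites, ran the other way. Its vehicle mean was -3.57 ± 0.35 in lung, -2.84 ± 0.26 in forestomach and -2.07 ± 0.91 in liver (SD, n = 5 each). Only lung against liver passed, with lung lower (95% confidence interval of the log2 difference -2.26 to -0.74, limma adjusted p = 0.000514; -1.37 relative to all probes under median centring, where it did not pass, adjusted p = 0.371). Median centring turned lung minus forestomach to 1.58 (0.63 relative to all probes) and put liver above forestomach by 2.33 (2.16 relative). Its relative Egr2 was at -0.93 ± 0.53 in lung and not well above background on 4 of 5 liver and 3 of 5 forestomach arrays. Egr2 counted among the calls for lung over liver, but 4 of the 5 livers gave no measured signal, so no size is given, and the call was lost without mouse 1 (limma adjusted p = 0.054).

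The Fos subunits were dim. Fos itself was well above background on all 5 vehicle lungs (-3.01 ± 0.12), on 3 of 5 forestomachs (-1.87 ± 0.89) and on 0 of 5 livers, so that only a bound can be given against liver. The Cy5 signal of Fos was 249.6 to 300.5 in the lungs and 82.3 to 88.35 in the livers, and after loess and Aquantile normalization of the Cy5 channel the lung mean was at least 1.58-fold higher than the lowest signal called well above background, or the liver signal where that was higher. The lung-liver contrast of Fos did not pass in the authors' ratios (limma adjusted p = 0.0771), and under median centring it was 2.09, or 1.47 relative to all probes. The forestomach call against liver was counted with the others, but its size is not given, since 2 forestomachs and all livers lacked a measured signal. Fosb averaged -2.83 ± 0.11 in lung, -1.85 ± 0.24 in liver and -1.62 ± 0.98 in forestomach (2 of 5 arrays well above background). Fos and Fosb counted among the calls lower in lung than in forestomach, but no size is given, since forestomach signals were partly not measured. On slide 1, where all were, the 2 vehicle forestomachs read -3.29 and -2.01 for Fos and -2.89 and -2.44 for Fosb, and their means were -2.65 and -2.67, against -3.01 and -2.83 in lung. Under median centring the fitted lung minus forestomach differences of Fos and Fosb were 1.12 and 0.78 (0.17 and -0.17 relative to all probes), and with the Cy5 signal alone 0.10 and 0.05. Fosb was lower in lung than in liver by 0.98 (adjusted p = 0.0106), and by 0.27 relative to all probes under median centring (-0.27; 0.35 before that subtraction).

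Junb, the Jun protein that restrains Jun-driven transcription, averaged -1.93 ± 0.14 in lung, -1.19 ± 0.29 in liver (4 of 5 arrays well above background) and -0.74 ± 0.33 in forestomach. Lung was lower than liver by 0.74 (limma adjusted p = 0.000111), a difference of 0.45 under median centring, which is -0.17 relative to all probes. Ier2, a nuclear protein of less defined function, averaged -1.65 ± 0.06, -0.56 ± 0.18 and -0.64 ± 0.45 in lung, liver and forestomach, and was lower in lung than in liver by 1.09 (adjusted p = 2.34e-07), which became 0.26, or -0.36 relative to all probes. Atf3, a stress-induced CREB-family repressor, averaged -1.44 ± 0.28, -1.79 ± 0.26 and -0.55 ± 0.59. In forestomach Junb, Ier2 and Atf3 were well above background on 2, 3 and 3 of 5 vehicle arrays, so their calls against forestomach are counted without a size. On slide 1, where all 3 were measured, the 2 vehicle forestomachs read -1.10 and -1.09 for Junb, -1.09 and -1.12 for Ier2 and -0.92 and 0.44 for Atf3, above every vehicle lung (at most -1.71, -1.58 and -1.01). Under median centring the fitted lung minus forestomach differences were 0.43, 0.86 and 1.08, or -0.52, -0.09 and 0.13 relative to all probes. The call of Atf3 between lung and forestomach was lost without mouse 2 (adjusted p = 0.088), and that between liver and forestomach with median centring (adjusted p = 0.481).

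**Figure D1:**
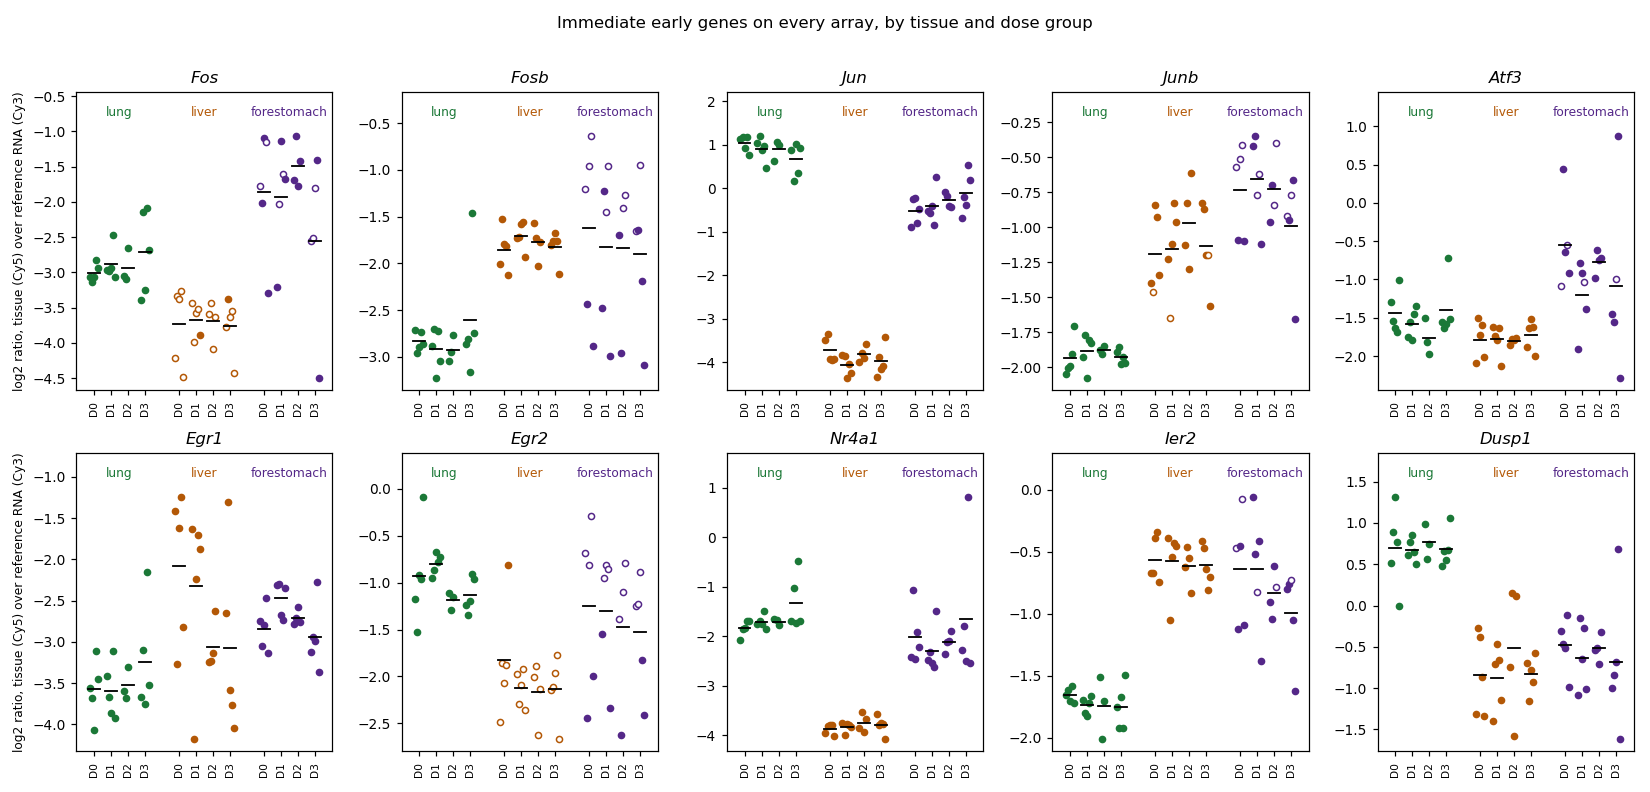
Log2 ratio over the reference RNA (y axis) of each of the 10 members on every array, by tissue and dose group (x axis). Each dot is 1 array, open circles are arrays on which Cy5 was not well above background, and black bars are group means. Within each tissue every dosed group overlaps the vehicle group for every member, while Jun separates the tissues at D0 (1.03, -3.73 and -0.53 in lung, liver and forestomach).

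Whether chrysene moved these genes was then asked dose by dose. In lung 0 of 10 members passed at any dose, in limma's test against D0 (at D3 40 of 31496 probes, or 0.127%, passed, and at D1 and D2 0%) or in a trend over the dose steps (0.168% of all probes). At D1 all 10 confidence intervals lay within 1.5-fold of D0. At D3 that held for Junb, Egr2, Atf3, Ier2 and Dusp1, and the widest limits reached 1.65-fold lower for Jun and 1.86-fold higher for Nr4a1. The median D3 difference was 0.02 over the members and -0.03 over all probes. An unadjusted p no higher than 0.05 was reached by 0, 0 and 2 members at D1, D2 and D3 (5.88%, 6.12% and 16.1% of all probes) and by 2 in the trend (17.3%), in each case Nr4a1 and Jun.

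Nr4a1 read -2.08, -1.86, -1.69, -1.69 and -1.83 in the D0 lungs and -1.03, -1.74, -0.47, -1.69 and -1.68 in the D3 lungs of mice 17, 18, 19, 16 and 20. Mice 17 and 19 lay clear of the vehicle range, mouse 20 stood at its upper edge and the other 2 fell inside it. The D3 mean differed by 0.51 (1.42-fold, 95% confidence interval 0.11 to 0.90, limma adjusted p = 0.219). Without mice 17 and 19, whose lungs carried the muscle and keratinocyte genes, it was 0.13 ± 0.09 (SE; adjusted p = 0.692). With the muscle list as a covariate it was 0.12, and within the 3 slides it was 0.94, 0.58 and 0.07.

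Jun read 1.13, 1.17, 1.18, 0.75 and 0.93 at D0 and 0.16, 1.01, 0.35, 0.88 and 0.92 at D3, in the same order of mice. The 2 low values were again mice 17 and 19, and the other 3 lay within the vehicle range. The D3 difference was -0.37 (95% confidence interval -0.72 to -0.02, limma adjusted p = 0.292), -0.10 without those 2 mice (adjusted p = 0.87) and -0.99, -0.50 and 0.06 within slides. With the array column as a covariate, which in lung is nearly the same as the dose step, both estimates changed sign (Jun 0.57, Nr4a1 -0.30), with SEs of 0.61 and 0.70. What part the muscle-bearing slices had in these differences was not tested beyond these values, and column and dose cannot be told apart in lung.

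Fos was also high in both of these lungs, and Fosb, Egr1 and Atf3 were high in mouse 19. Fos read -2.14 and -2.08 in mice 17 and 19 against -3.25, -3.39 and -2.68 in the other D3 lungs and -3.14 to -2.83 at D0. Fosb, -1.46 in mouse 19, was -3.16 to -2.75 in the other D3 lungs, and Egr1 was -2.16 there against -3.75 to -3.10. Atf3 reached -0.72 in mouse 19 against -1.64 to -1.51. The D3 differences of Fos, Fosb, Egr1 and Atf3 (0.30, 0.22, 0.33 and 0.03) became -0.10, -0.09, -0.07 and -0.11 without mice 17 and 19.

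**Figure D2:**
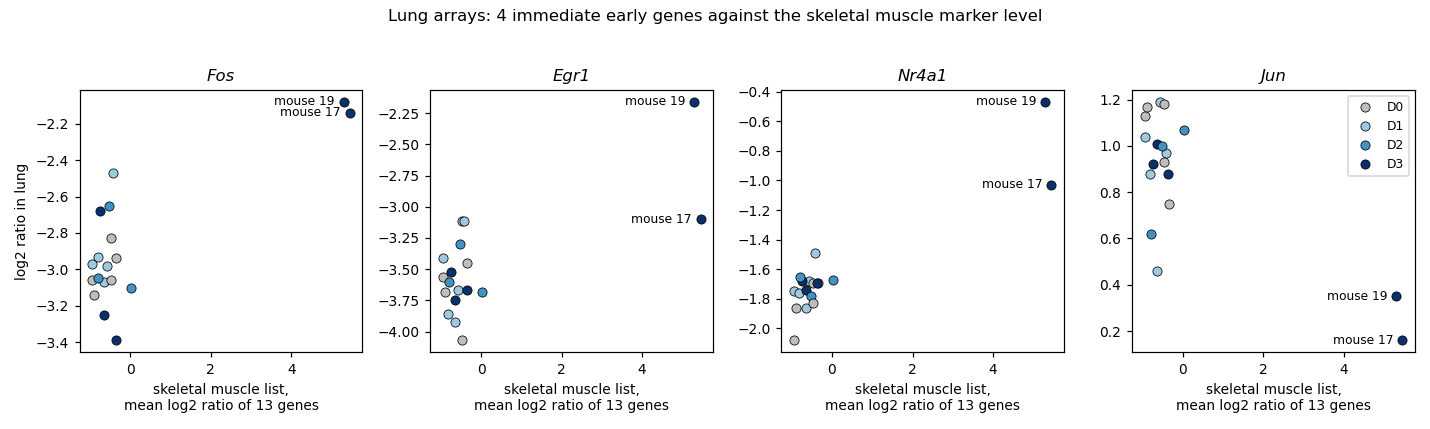
Log2 ratio of Fos, Egr1, Nr4a1 and Jun (y axes) against the mean log2 ratio of 13 skeletal muscle genes (x axes) in the 18 lungs, 1 dot per array and coloured by dose group. Mice 17 and 19, at muscle means of 5.45 and 5.30, hold the highest Nr4a1 (-1.03 and -0.47) and the lowest Jun (0.16 and 0.35) of all lungs.

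Junb and Ier2 varied least in lung. Junb lay between -2.08 and -1.71 and Ier2 between -2.01 and -1.49 over all 18 lungs, and the SD within dose groups was 0.103 for Junb, at the 11.6th percentile of all probes tested, and 0.144 for Ier2 (39.4th percentile). Junb was dim, with a Cy5 signal of 120 to 240. The lowest signal called well above background in lung was 80 to 89.5, and its part in the small SD was not tested. Egr1 (0.441), Fosb (0.381) and Fos (0.367) varied more between mice, at percentiles 95.7, 93.9 and 93.3, against a median SD of 0.159 over all probes. Egr2 ran from -1.53 to -0.09 and Dusp1 from -0.01 to 1.31 among the vehicle lungs alone, and each D3 lung fell inside those ranges. Their D3 differences were -0.19 for Egr2 and -0.01 for Dusp1, with 95% limits within 1.5-fold, but with the array column as a covariate they were -0.55 ± 0.69 and -0.83 ± 0.67 (SE, limma adjusted p = 1.00), so those limits hold only where the column is left out.

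In liver Fos and Egr2 were well above background on 2 and 1 of 19 arrays and were not tested, so that 8 members remained. Of these 0 passed at any dose or in the trend, and 0% of the 24769 probes tested passed. At D3 5 of 8 confidence intervals lay within 1.5-fold of D0, those of Fosb, Junb, Atf3, Ier2 and Nr4a1. The Cy5 signals of Fosb, Junb and Atf3 in liver were only 100 to 159.5, 79 to 143 and 100.5 to 133.5. The lowest signal called well above background there was 71 to 88.5. No background was subtracted, and whether such dim signals narrowed these intervals was not tested. The median D3 difference was 0.02 over the members and -0.01 over all probes. An unadjusted p no higher than 0.05 was reached by 1, 0 and 0 members at D1, D2 and D3 (3.61%, 3.78% and 4.78% of all probes) and by 1 in the trend (5.41%), namely Jun at D1 and Egr1 in the trend.

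Egr1 varied most between livers among the members. Its SD within dose groups was 0.932, at the 99.7th percentile, where the median over all probes was 0.156. At D0 it read -3.27, -1.62, -1.25, -2.82 and -1.42, and at D1 -1.63, -2.24, -1.71, -1.88 and -4.18. At D2 the 4 livers read -3.25, -3.23, -2.63 and -3.14, and at D3 the 5 read -2.65, -1.31, -3.58, -3.77 and -4.04. Every dose group overlapped the vehicle range.

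The D3 difference of Egr1 was -0.99 (95% confidence interval -2.10 to 0.11, limma adjusted p = 1.00), so a fall of up to 4.29-fold lay within the interval. The fitted D0-to-D3 trend was -1.10 (95% confidence interval -2.11 to -0.09, limma adjusted p = 0.917). Without mouse 17, the highest D3 liver, the difference was -1.43 (adjusted p = 0.992), and without mouse 20, the lowest, it was -0.75 (adjusted p = 0.841). Within the 3 slides it was -1.92, 1.29 and -2.24, so it did not keep its direction from slide to slide, though slide 2 held only 1 D0 liver. With slide as a block the difference was -1.13 ± 0.53 (SE, limma adjusted p = 0.62). It was -1.36 with the clock list as a covariate (adjusted p = 0.859) and -1.80 ± 0.82 with the array column (adjusted p = 0.992).

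Jun in liver ran from -4.37 to -3.35 and was lower at D1 by 0.35 (95% confidence interval -0.68 to -0.01, limma adjusted p = 1.00) and at D3 by 0.25. Dusp1 was the other variable member, with an SD of 0.507 (98th percentile) and values from -1.58 to 0.15, and a D3 difference of 0.01 whose upper limit was 0.62. Nr4a1 stayed between -4.08 and -3.52 on all 19 livers. Fosb, Junb, Atf3, Ier2 and Nr4a1 differed at D3 by -0.04 to 0.08.

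In forestomach 0 of 10 members passed at any dose (at D3 2 of 27527 probes, or 0.00727%, at D1 and D2 0%) or in the trend (0.04%). An unadjusted p no higher than 0.05 was reached by 1, 0 and 0 members at D1, D2 and D3 (4.17%, 7.54% and 9.24% of all probes) and by 0 in the trend (9.18%). The intervals were wide. Only Egr1 was held within 1.5-fold at D3, and the limits reached 3.42-fold lower for Fos and 2.60-fold higher for Nr4a1. At D3 8 of 10 members lay below D0 in the authors' ratios, with a median of -0.26 against -0.00 over all probes. With the Cy5 signal alone Fosb, Junb and Egr1 lay above D0 instead (0.19, 0.04 and 0.08). Fos, Egr2, Atf3, Ier2 and Dusp1 stayed below it (-0.19, -0.14, -0.07, -0.26 and -0.16). In the authors' ratios the lower estimates were -0.69 (Fos), -0.53 (Atf3), -0.35 (Ier2), -0.28 (Fosb), -0.27 (Egr2), -0.25 (Junb), -0.21 (Dusp1) and -0.10 (Egr1), with limma adjusted p from 0.735 to 0.926. Of 5 D0 and 5 D3 arrays, 3 and 2 were well above background for Fos, 2 and 2 for Egr2, and 2 and 3 for Fosb and Junb. For Ier2 and Atf3 it was 3 and 4, so the sizes for these dim members rest partly on signals that were not measured.

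The D3 differences in the authors' ratios rested on few animals. Fos read -1.78, -1.09, -1.15, -3.29 and -2.01 at D0 and -2.55, -2.51, -1.80, -4.50 and -1.41 at D3, the last 2 being mice 20 and 19, with 3 and 2 arrays well above background. Without mouse 20 the Fos difference was -0.20, those of Fosb, Egr1 and Dusp1 were 0.02, 0.01 and 0.02, and that of Atf3 was -0.23. Without mouse 19 the Atf3 difference was instead -1.02 (limma adjusted p = 0.176) and that of Dusp1 -0.55 (adjusted p = 0.357). The Atf3 values show how: mouse 19 read 0.87, mice 20, 17 and 16 read -2.29, -1.55 and -1.45, and the D0 samples ran from -1.09 to 0.44.

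Of all 19 forestomachs that of mouse 19 was the highest for Jun, Egr1, Nr4a1 and Dusp1, the 4 members measured above background on every array. Nr4a1 read 0.81 there and -2.53 to -1.80 in the other D3 forestomachs, and Dusp1 read 0.69 against -1.62 to -0.68. Over all 19 forestomachs Nr4a1 ran from -2.61 to 0.81, and the range of Fos spanned 10.8-fold. The Nr4a1 difference at D3 was 0.36 with mouse 19 and -0.26 without (adjusted p = 0.893 and 0.822). Mouse 19 was also the only D3 forestomach with a high glandular stomach list (7.24), and mouse 2, the highest D0 sample for Nr4a1 (-1.07) and Atf3 (0.44), held the list at 7.24 too. Mouse 12 at D2 had the highest list mean, 7.28, with Nr4a1 at -2.12. The part of the glandular tissue in these values was not tested beyond the covariate fit given for Jun.

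Jun was the member nearest to a call. Its D0 values were -0.90, -0.23, -0.81, -0.49 and -0.24 and its D3 values -0.69, -0.20, -0.38, 0.19 and 0.53. Mice 20 and 19 lay clear above the vehicle range, mouse 17 just above it and the other 2 inside it. The difference was 0.42 (95% confidence interval -0.05 to 0.90, limma adjusted p = 0.603), and within slides it was 0.72, 0.46 and 0.14. With the glandular list as a covariate it was 0.61 ± 0.15 (SE, adjusted p = 0.0655), the lowest adjusted p that any member reached in any dose comparison under any alternative, and without mouse 19 it was 0.27 (adjusted p = 0.73). Egr1 at D1 was higher by 0.37 (95% confidence interval 0.01 to 0.73, limma adjusted p = 1.00).

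For Fosb and Egr2 most of the variation between mice of a dose group went with the slide. The slide took 90.5% of the variation within dose groups of Fosb and 87.2% of that of Egr2, against a median of 34.2% over all probes, 0.0067% for Egr1, 4.75% for Dusp1, 19.8% for Nr4a1 and 43.4% for Jun, which were measured on every array, and 23.9%, 23.4%, 4.8% and 37.3% for the likewise dim Fos, Junb, Atf3 and Ier2. Fosb averaged -2.72, -1.48 and -1.09 on the 3 slides and was well above background on 7 of 7, 3 of 5 and 0 of 7 arrays. Its Cy5 intensity was 99 to 242 on slide 1, 68.5 to 93 on slide 2 and 70 to 85 on slide 3. Egr2 averaged -2.17, -1.10 and -0.79 and was measured above background on slide 1 alone. The rise in the ratio of Fosb and Egr2 from slide 1 to slides 2 and 3 is thus one between arrays on which the tissue signal was measured and arrays on which it was mostly not. With slide as a block the D3 difference of Fosb was -0.20 ± 0.18 and that of Egr2 -0.22 ± 0.18 (SE), with adjusted p of 0.635 and 0.608.

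**Figure D3:**
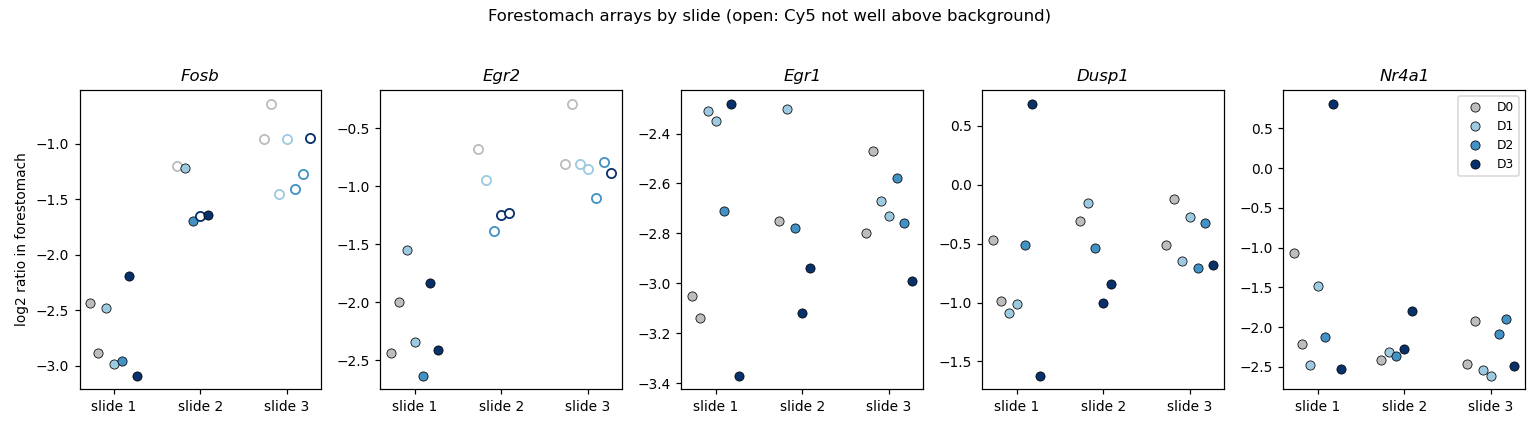
Log2 ratio of Fosb, Egr2, Egr1, Dusp1 and Nr4a1 (y axis) in the 19 forestomachs by array slide (x axis), coloured by dose group, with open circles where Cy5 was not well above background. Fosb and Egr2 are lowest on slide 1 (slide means -2.72, -1.48, -1.09 and -2.17, -1.10, -0.79), with slides 2 and 3 overlapping, while the slide means of Egr1 are alike (-2.74, -2.78, -2.71).

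**Figure D4:**
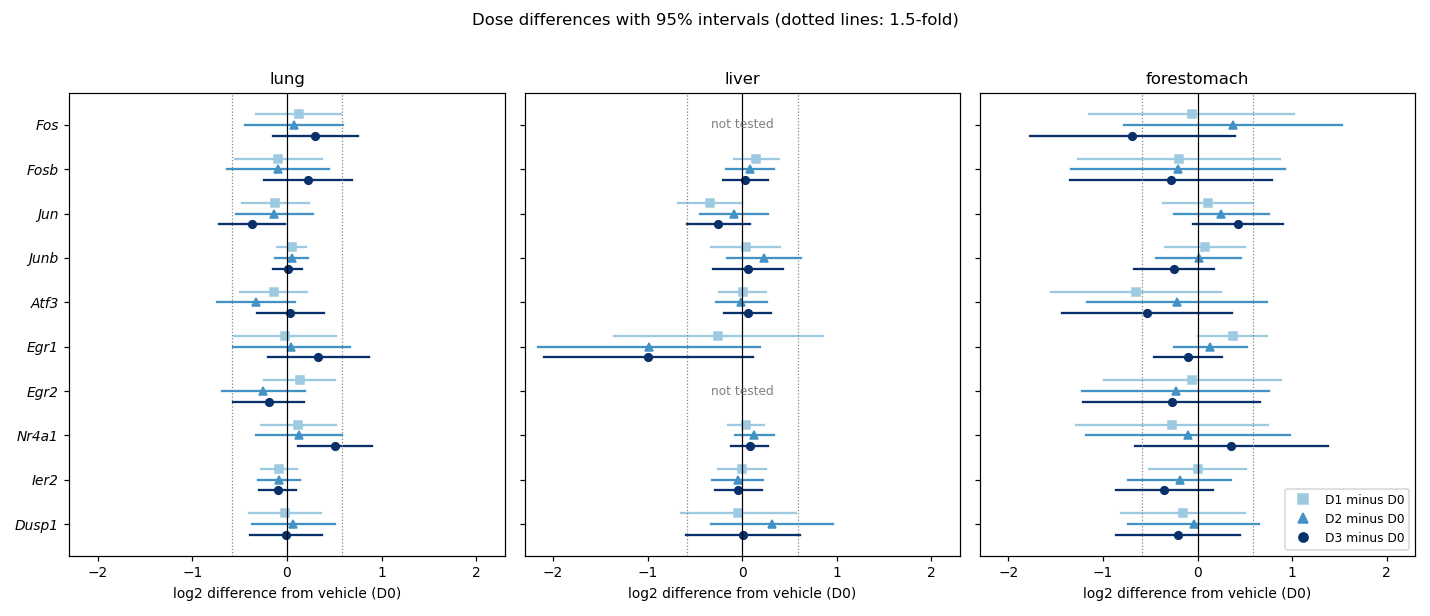
Difference in log2 ratio from D0 (x axis) at D1, D2 and D3 for each member (y axis) in each tissue, with 95% confidence intervals from limma as bars and 1.5-fold as dotted lines. All 10 intervals lie within 1.5-fold in lung at D1, while in forestomach, where intervals are wide, 1 of 10 does at D3. Fos and Egr2 were not tested in liver.

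The D3 effect was also compared between tissues, with an interaction contrast over all 56 arrays. None of the 10 members passed in any of the 3 pairs (0% of all probes for lung against liver, 0.703% for lung against forestomach, 0.0772% for liver against forestomach), and in each pair 1 member had an unadjusted p no higher than 0.05 (5.25%, 12.9% and 9.89% of all probes). Jun, lower at D3 in lung (-0.37) and higher in forestomach (0.42), differed by -0.79 (95% confidence interval -1.35 to -0.24, limma adjusted p = 0.152). Between liver (-0.25) and forestomach Jun differed by -0.68 (limma adjusted p = 0.36). The Egr1 effects of lung (0.33) and liver (-0.99) differed by 1.33 (95% confidence interval 0.25 to 2.40, limma adjusted p = 0.802).

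How the members varied together between mice was described with Pearson's r of deviations from the dose-group means, over arrays that share slides and normalization. The median over the 45 pairs of members was 0.18 in 18 lungs, 0.23 in 19 livers and 0.41 in 19 forestomachs, where the members' median r with all other probes tested was -0.04, -0.01 and -0.02. The liver pairs include those of the untested Fos and Egr2. With slide means also removed the medians were 0.29, -0.02 and 0.54. Leaving out 1 mouse at a time gave medians of 0.04 to 0.18, 0.13 to 0.31 and 0.30 to 0.45, the lowest in lung without mouse 19 and in forestomach without mouse 20.

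The closest pairs differed between tissues. In lung they were Fosb with Egr1 (r = 0.85), Egr1 with Nr4a1 (0.83) and Fos with Egr1 (0.80), which without mice 17 and 19 fell to 0.63, 0.50 and 0.67, and Fosb with Nr4a1 (0.78), which fell to 0.23. In liver, among members tested there, Fosb with Atf3 (0.74; 0.41 within slides), Junb with Nr4a1 (0.74; 0.60), Junb with Egr1 (0.73; 0.73) and Egr1 with Ier2 (0.72; 0.68) led. In forestomach Fosb and Egr2 reached 0.95 but 0.58 within slides, whereas Atf3 with Dusp1 (0.84; 0.89 within slides), Junb with Ier2 (0.82; 0.75) and Atf3 with Nr4a1 (0.81; 0.86) kept their level. The forestomach values of Fosb, Egr2, Junb, Ier2 and Atf3 rest in part on arrays without a measured signal (10, 7, 10, 14 and 15 of 19 were well above background). Without mouse 19 Atf3 with Dusp1 was 0.60 and Atf3 with Nr4a1 0.43.

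**Figure D5:**
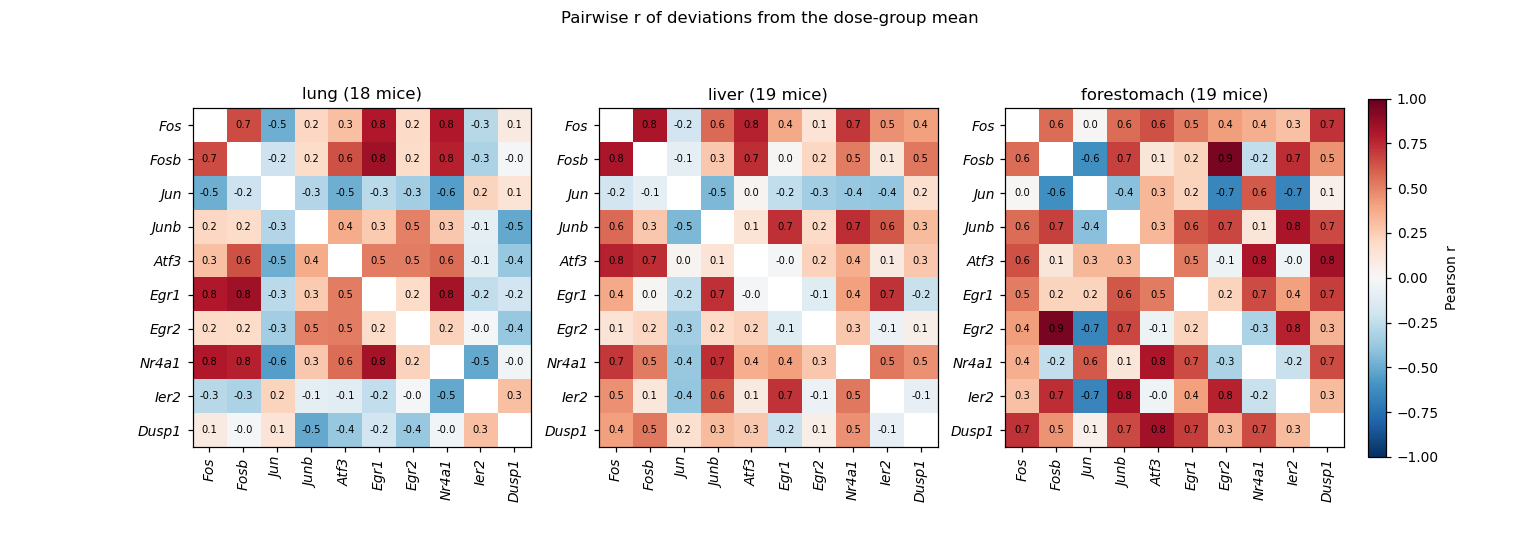
Pearson's r between members (both axes) of deviations from the dose-group means, 1 panel per tissue (18 lungs, 19 livers, 19 forestomachs), from blue (negative) to red (positive). The forestomach panel holds the highest median over the 45 pairs (0.41, against 0.18 in lung and 0.23 in liver). Fos and Egr2 are drawn in liver although they were mostly not well above background there, and Fos, Fosb, Egr2, Junb, Ier2 and Atf3 in forestomach although part of their arrays were not.

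The genes whose variation was most like the mean deviation of the members, of 14761, 12624 and 14076 named genes compared, were as follows. In lung they were Clec2e (r = 0.86), Myc (0.84), Zfp385b (0.83), Slamf6 (0.83) and Dhrs9 (0.82) over 18 arrays, and without mice 17 and 19 these fell to 0.54, 0.50, 0.35, 0.43 and 0.52. In liver they were Acad10 (0.93), Ppp1r15a (0.90), Ift43 (0.88), Cfhr2 (0.87) and Cramp1l (0.86) over 19 arrays, at 0.88, 0.80, 0.76, 0.68 and 0.72 within slides. In forestomach Ccn1, itself a serum-inducible matrix protein of the wider immediate early list, led with 0.96 and kept 0.93 without mouse 19. Cytip (0.84), Kcnn4 and Pdia5 (0.82 each) followed, and without mouse 20 these fell to 0.75, 0.69 and 0.73. Myc is a growth-induced transcription factor and Ppp1r15a a stress-induced phosphatase subunit.

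As each mouse gave up to 3 organs, the deviations of each member were also correlated between organs of the same mouse (10 members and 3 pairs of tissues, 30 relations, permutation test with 100000 resamples within dose groups, two-sided). None passed after Benjamini-Hochberg adjustment. Of the 30 relations 22 were above 0, but 17 with the Cy5 signal alone, and the share over all probes was not computed. Dusp1 in lung and liver came nearest, with r = 0.64 (permutation p = 0.00366, adjusted p = 0.11) and rho = 0.74 (p = 0.00216, adjusted p = 0.0648) over 18 mice. With mice 3 and 5, the extremes, removed it was 0.65, and 0.50 with slide means removed (permutation p = 0.0226). Nr4a1 in lung and forestomach reached r = 0.74 (rho = 0.49, permutation p = 0.0537 and 0.084, adjusted p = 0.35 and 0.42), which rested on mice 18 and 19, since r was 0.25 without them. Fos in liver and forestomach reached r = 0.61 (rho = 0.47, permutation p = 0.0207 and 0.0657, adjusted p = 0.31 and 0.42) and 0.23 without mice 5 and 20, with Fos near background in liver. Jun in lung and forestomach ran the other way, at r = -0.54 (rho = -0.50, permutation p = 0.0584 and 0.0708, adjusted p = 0.35 and 0.42), at -0.53 without mice 10 and 17 and at -0.44 with slide means removed.

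The wider immediate early list gave the same picture of few calls. It held 35 genes (among them Fosl1, Fosl2, Jund, Egr3, Klf4, Btg2 and Zfp36), of which 31 were tested in lung, 29 in liver and 32 in forestomach, and 0 passed at any dose in any tissue, beside the percentages of all probes given for the members. The list's median D3 difference was -0.14 in lung, 0.03 in liver and -0.02 in forestomach (-0.03, -0.01 and -0.00 over all probes). In lung at D3 2 were higher and 7 lower before adjustment (p no higher than 0.05, as for 16.1% of all probes), led by Dusp2 (0.63, limma adjusted p = 0.231) and Fosl2 (0.23, adjusted p = 0.299) on one side and Gadd45b (-0.50, adjusted p = 0.0884) and Cebpd (-0.59, adjusted p = 0.174) on the other. The D3 lungs include those of mice 17 and 19 with the muscle and keratinocyte genes, and no fit of this list without both is given. Gadd45b read -0.49 and -0.82 in these mice and 0.06, -0.00 and -0.19 in the other D3 lungs. Gadd45b, a growth-arrest and stress gene, had a lung trend of -0.50 with adjusted p = 0.0455, and Batf, an AP-1 partner of the feedback list, one of -0.45 with adjusted p = 0.0486, each under 1.5-fold. The Gadd45b trend kept an adjusted p of at most 0.05 under 3 of 27 alternatives and that of Batf under 5 of 27, and with the array column as a covariate they were -0.00 and -0.57 (adjusted p = 1.00).

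Jund, the Jun family member present in resting cells, was the exception between tissues. Its D0 and D3 forestomachs read -0.80, 0.10, 0.14, -0.97 and -0.33 (mice 1 to 5) and -0.28, 0.53, 0.82, 0.30 and 0.50 (mice 16 to 20), and its lungs 1.13, 1.01, 1.01, 1.13 and 1.05 against 0.94, 0.92, 0.98, 0.83 and 0.83. Of the D3 forestomachs 4 of 5 lay above the vehicle range, and all 5 D3 lungs lay below theirs. Neither difference passed alone (0.75, adjusted p = 0.244, and -0.16, adjusted p = 0.244), while their difference did (-0.91 ± 0.21 SE, limma adjusted p = 0.0252, lower in lung). Of all probes 0.703% passed in this contrast. It kept its sign under all 29 alternatives and lost the call under 8. The call was lost without mouse 1 (-0.79, limma adjusted p = 0.112), mouse 4 (-0.75, 0.112), mouse 17 (-0.88, 0.118) or mouse 20 (-0.86, 0.076). It was also lost with loess computed from the intensities (adjusted p = 0.0529) and with background correction before loess (0.0528). The same held with only the arrays of the 2 tissues (0.125) and with median centring (-1.23). The low vehicle forestomachs of mice 1 and 4 had the fewest probes well above background (23.5% and 18.1%), whose part was not tested.

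Upstream, the 13 kinases and factors that carry the signal to these promoters (ERK, JNK and p38 kinases, ELK factors, SRF, CREB1) had 0 calls of 13 tested in lung and forestomach and of 12 in liver. The feedback and partner list (Nab1, Nab2, Spry2, Spry4, Spred1, Batf, Jdp2, Atf2 and Crem) had 0 calls of 8 tested in each tissue. Over all probes 0.127%, 0% and 0.00727% passed at D3 in lung, liver and forestomach, so these counts are no result particular to the 2 lists. Of the clock output list (10 genes, which move with the time of day at which an animal is killed) 7 of 10 were higher in lung at D2 before adjustment (p no higher than 0.05), where 6.12% of all probes were at that limit in either direction, the list's median was 0.66, and 0 passed. The list also held 4 of 9 higher in liver at D2 (median 0.65, 3.78% of all probes), and at D3 3 of 10 in lung (0.17, 16.1%) and 3 of 8 in forestomach (0.40, 9.24%). The members' median in lung at D2 was -0.02. With the clock list as a covariate the D3 forestomach differences of Fosb, Egr2 and Jun were -0.98, -0.92 and 0.63. Their limma adjusted p was 0.188, 0.15 and 0.146, and the differences of Atf3 and Egr1 were -0.47 and -0.12. The part of the time of day in the members' values was not tested beyond such fits.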

How the data were processed

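Total RNA of lung, liver and forestomach was hybridised to 2-colour Agilent mouse arrays. Per the file headers the arrays were read with Feature Extraction software, and the deposited scanner files give intensities for each of 62976 spots, of which 3671 control spots were left out. The authors normalized median signal intensities by LOWESS without background subtraction and deposited log2 ratios of Cy5 (tissue) over Cy3 (reference) for 55681 probes, which are the values analysed here. Loess computed here from the intensities correlated with them at r = 0.977 to 0.998. RefSeq accessions named 47.44% of the probes (26413, 20018 genes). The precision is limited by the number of arrays.

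The methods of the study name MAANOVA. Here limma 3.58.1 (R 4.3.3, package data.table in version 1.17.8) was fitted per tissue with 4 dose groups, or over all 56 arrays for contrasts between tissues, on probes well above background in Cy5 on at least 3 arrays of a tissue. Calls need p adjusted over every tested probe to be no more than 0.05 and a 1.5-fold change. The trend is linear in the dose step, as the fitted D0-to-D3 change. The script was tested on simulated data. Promoters and figures used Python 3.11.15, numpy 2.4.6 and matplotlib 3.10.9. All members are named. Other lists' genes are named where they passed the adjusted p limit, or as the 2 with the smallest p in each direction at D3, and up to 5 genes per tissue are named for likeness, of which 1 is not reported here. Alternatives covered normalization, background, filter, slide, array column, marker covariates, array weights, dose scale, clock list, p from 100 shuffles of the residuals and each mouse left out. The members and lists were chosen with earlier results of these data known. Genes without a probe under their name (Icer, Ly6g, Cd68) were not analysed here.

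The labels number the mice, and the same number in 2 tissues is the same animal, so the tissues are paired by design. Deviations from group means of the same mouse correlated at 0.0416 to 0.27 over probes for lung and liver (14 of 18 mice best with their own number), -0.0873 to 0.133 for lung and forestomach (1 of 18) and -0.167 to 0.246 for liver and forestomach (4 of 19).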

Additional observations from a re-analysis of the deposited data

Results flagged for a closer look

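In 9 of the 110 groups of 4 or 5 arrays that were checked (8.18%), the highest or lowest array lay far from its nearest neighbour for its group's range. Chance sets apart about 1 in 20 groups. Mouse 19 gave 3 of them: in lung at D3 Fosb read -1.46 (the nearest lung -2.75) and Atf3 -0.72 (nearest -1.51), and in forestomach at D3 Nr4a1 read 0.81 (nearest -1.80). Its lung held skeletal muscle genes at a mean of 5.30 and its forestomach glandular stomach genes at 7.24, and their part in these values was not tested.

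The liver of mouse 7 at D1 gave 3 more, all low: Egr1 at -4.18 (nearest -2.24), Ier2 at -1.05 (nearest -0.54) and Nr4a1 at -4.00 (nearest -3.83). Fos read -2.47 in the D1 lung of mouse 9 (nearest -2.93), Nr4a1 -1.48 in the D1 forestomach of mouse 10 (nearest -2.32) and Junb -1.66 in the D3 forestomach of mouse 20 (nearest -0.95), a group in which 3 of 5 arrays were well above background. Between tissues, the D3 effect of Jund was lower in lung than in forestomach by 0.91 on the log2 scale (-0.91, limma adjusted p = 0.0252), a difference that was tested with an interaction contrast. The call was lost under 8 of 29 alternatives, some of them other normalizations.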

How the results depend on the processing

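No member passed at any dose, in any trend or in any difference of the D3 effect between tissues under any alternative run, also with each mouse left out in turn (0 in every fit). The levels between vehicle tissues moved more. Of 19 member calls, 6 kept sign and call under every alternative other than a left-out mouse and 8 turned sign under at least 1, before the shift of all probes is taken off. With median centring the 4 calls for liver against forestomach were all lost and 1 other member was called, so the count was 1, and lung minus liver became 0.35 for Fosb, 0.45 for Junb and 0.26 for Ier2, and lung minus forestomach 1.12 for Fos, 0.78 for Fosb, 0.43 for Junb, 1.08 for Atf3 and 0.86 for Ier2. Relative to the median of all probes these were -0.27, -0.17, -0.36, 0.17, -0.17, -0.52, 0.13 and -0.09, so that only Fos and Atf3 turned among them. With the Cy5 signal alone the calls for lung against forestomach dropped from 7 to 2, and Fos (0.10) and Fosb (0.05) turned sign. With the array column as a covariate Jun in lung turned to 0.57 at D3 and to 0.20 in the trend, and Nr4a1 at D3 to -0.30. Leaving out 1 mouse gave 7 to 9, 6 to 7 and 4 to 6 calls for the 3 pairs of tissues. With mouse as a random block for the pairing the counts were 8, 7 and 4, with 0 differences in the D3 effect, and it changed no call. Of 132 other estimates at single doses, of trends and of differences in the D3 effect between tissues, none called, 95 changed sign under some alternative. Of these, 8 did so past 1.5-fold. The pairwise r and likeness values without single mice, without lung mice 17 and 19 and within slides were chosen after seeing the data. The planned change to another probe of a member was not run, as each member has 1 probe. Depth of signal limits Fos and Egr2 in liver and Fosb, Egr2 and Junb in forestomach most. Fosb, Junb and Atf3 in liver and Junb in lung were also dim.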
